A study of Mus musculus with 6 samples.

Results

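The Krüppel-like factors described here are 9 zinc finger transcription factors, *Klf2*, *Klf3*, *Klf4*, *Klf5*, *Klf6*, *Klf9*, *Klf10*, *Klf13* and *Klf17*. They were taken by name from the expression table of mouse blastocysts, in which an Ensembl identifier of each was found, so that they make up 9 of the 55774 genes listed. Wild-type embryos of ICR mice were collected at the 2-cell stage and cultured to the blastocyst in CZB medium with extracellular vesicles from human Fallopian tubes. The vesicles came from women with endometriosis (oEV-EMT) or from women without it (oEV-ctrl). RNA was sequenced from 3 libraries per group, each made from a pool of 10 blastocysts. For the women without endometriosis, the sample labels name uterine fibroids and the methods cervical intraepithelial neoplasia. No blastocysts cultured without vesicles were among the libraries. Human vesicles were given to mouse embryos in every library, and which donors were behind which library is not given. The p-values below therefore measure only the spread between pools. Since a blastocyst holds trophectoderm, epiblast and primitive endoderm together, fewer cells of a type and less RNA per cell cannot be told apart.

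Krüppel-like factors bind GC boxes and CACCC elements through a block of zinc fingers at the end of the protein. The part in front of the fingers differs from member to member and decides whether a factor activates or represses. In mouse embryonic stem cells *Klf2*, *Klf4* and *Klf5* act together to hold the naive pluripotent state, where *Klf4* lies downstream of LIF and STAT3 and *Klf2* downstream of MEK5 and ERK5. In the mouse embryo *Klf5* is needed for both the trophectoderm and the inner cell mass, and *Klf17* is best known from the oocyte and the earliest cleavage stages. *Klf3* represses through CtBP, while *Klf9*, *Klf10* and *Klf13* recruit the SIN3A corepressor.

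The sequences below show how alike the members are at the part that reads DNA, and where they differ. They give the coding bases of the last zinc finger, 63 bases from the first zinc-binding cysteine to the last zinc-binding histidine, read from the GENCODE M21 transcripts. *Klf2* and *Klf4* are the closest pair, *Klf5* is the member with the highest level, *Klf9* stands for the SIN3A-binding members, and *Klf17* is the most distant. Capitals mark the codons of the 2 cysteines and the 2 histidines that hold the zinc ion.
*Klf2*: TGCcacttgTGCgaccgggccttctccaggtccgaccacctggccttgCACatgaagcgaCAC
*Klf4*: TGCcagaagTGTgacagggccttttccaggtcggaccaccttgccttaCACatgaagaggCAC
*Klf5*: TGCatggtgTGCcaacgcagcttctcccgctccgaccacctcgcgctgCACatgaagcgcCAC
*Klf9*: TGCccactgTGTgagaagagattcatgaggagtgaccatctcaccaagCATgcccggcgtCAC
*Klf17*: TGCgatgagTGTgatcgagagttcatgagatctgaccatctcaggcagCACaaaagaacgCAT

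Over the 81 residues of the 3 zinc fingers, 38 positions were identical in all 9 factors. The 36 pairs shared from 54.3% to 91.4% of these residues, with a median of 65.4%. *Klf2* and *Klf4* stood at the upper end, and *Klf17* with *Klf9* and with *Klf13* at the lower end. The plot of finger identity shows 1 block of *Klf2*, *Klf4*, *Klf5*, *Klf3* and *Klf6*, another of *Klf10*, *Klf9* and *Klf13*, and *Klf17* apart from both. The similarity was less marked in the bases. The longest run of identical bases in any pair of finger regions was 24, and no stretch of 50 bases was shared between transcripts of any 2 members. With other genes, *Klf17* shared 9.32% of its stretches of 50 bases, all with the pseudogene *Gm20690*, whose highest value was 0.0739 FPKM, and *Klf3* shared 3.48%, with 44 genes. The other members shared at most 0.263%. Of the genes that overlap a member in the annotation, none exceeded the 1.87 FPKM of *Mir1192* within *Klf9*.

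**Figure D1:**
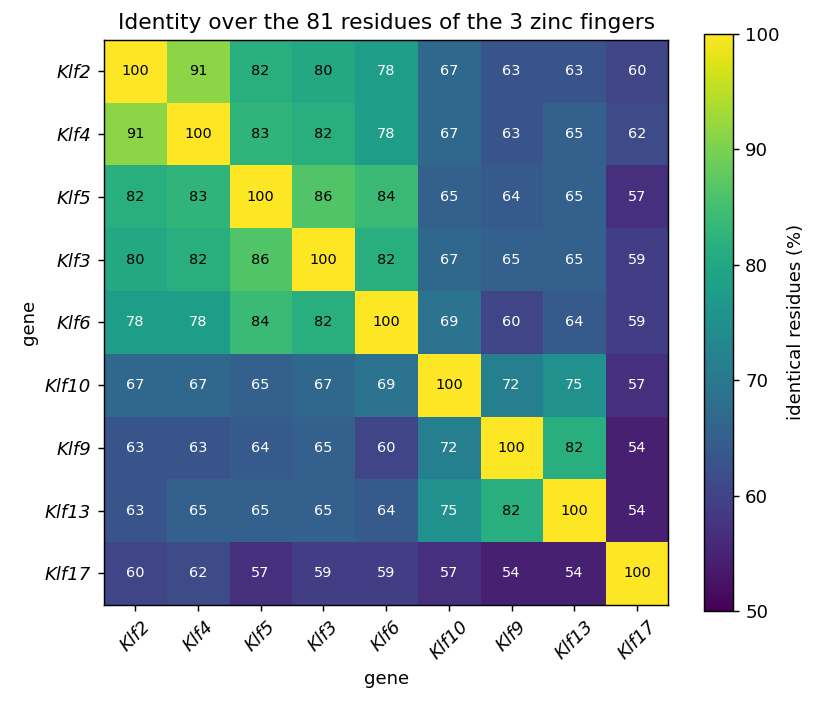
Identity between the zinc fingers of the 9 factors. Each cell gives the percentage of identical residues over 81 aligned positions, with genes on both axes and the colour scale from 50% to 100%. *Klf2* and *Klf4* share 91.4%, and *Klf17* shares between 54.3% and 61.7% with every other member.

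Upstream sequence is shown for *Klf2* and *Klf4*, the closest pair in the fingers, and for *Klf17*, whose base composition was unlike theirs. An entry was matched in the RefSeq promoter table for 7 of the 9 factors, and *Klf5* and *Klf10* were not analysed here. For *Klf2* the printed stretch ends where the annotated gene begins, and the counts below cover 250 bases before the RefSeq start. Capitals mark the GC box GGGCGG and the CCAAT box, each on either strand.
*Klf2*, GRCm38.p6 chr8:72318812-72319032, plus strand: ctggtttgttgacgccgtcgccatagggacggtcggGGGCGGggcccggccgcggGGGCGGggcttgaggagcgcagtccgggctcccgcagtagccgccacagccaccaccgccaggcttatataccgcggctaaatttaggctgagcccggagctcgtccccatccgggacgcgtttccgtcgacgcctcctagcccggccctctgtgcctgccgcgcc
*Klf4*, GRCm38.p6 chr4:55532476-55532725, minus strand: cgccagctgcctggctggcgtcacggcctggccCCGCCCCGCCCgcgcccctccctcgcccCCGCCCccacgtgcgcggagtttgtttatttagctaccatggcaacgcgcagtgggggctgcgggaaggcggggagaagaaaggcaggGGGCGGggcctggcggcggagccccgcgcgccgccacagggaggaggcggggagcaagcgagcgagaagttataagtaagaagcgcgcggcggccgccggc
*Klf17*, GRCm38.p6 chr4:117765667-117765916, minus strand: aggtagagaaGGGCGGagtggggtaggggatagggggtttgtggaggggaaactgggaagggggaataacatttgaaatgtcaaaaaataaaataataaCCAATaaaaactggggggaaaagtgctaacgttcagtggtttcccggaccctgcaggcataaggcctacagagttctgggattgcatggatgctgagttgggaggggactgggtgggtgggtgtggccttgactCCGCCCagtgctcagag

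The upstream sequence of *Klf17* had a GC content of 52.0% and a ratio of observed to expected CpG of 0.301. The other 6 members lay between 59.6% and 78.4% in GC content and between 0.599 and 0.941 in CpG ratio. The medians over 32851 mouse promoters were 52.4% and 0.373. *Klf17* thus lay near the middle of all promoters, and the other 6 above it on both measures. The GC box GGGCGG was found in 6 of the 7 members (all but *Klf9*) against 32.7% of all promoters, and CCAAT in 4 (*Klf6*, *Klf9*, *Klf13* and *Klf17*) against 33.8%. The longer CACCC-type element GGGTGTGG was found only in *Klf17*, against 3.2% of promoters. The STAT-type motif TTCNNNGAA was found in *Klf9* alone, against 7.02%. None of the 7 held the CArG box (1.47% of promoters) or TATAAA (12.4%). Each motif was searched on both strands, and a match describes letters only.

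Expression was compared in FPKM, a fragment count corrected for transcript length and for the size of the library, which allows levels of different genes to be set side by side. A gene was tested when it had at least 1 FPKM in at least 3 libraries, which held for 11924 genes and for 8 of the 9 factors, all but *Klf17*. Differences are on the log2(FPKM + 1) scale, oEV-EMT minus oEV-ctrl, and the median difference over all tested genes was 0.17. The steps between the lowest values give a relative depth of 1.0, 0.582 and 0.683 for oEV-EMT 1, 2 and 3 and of 0.483, 0.664 and 0.883 for the oEV-ctrl libraries. By this estimate library oEV-EMT 1 was the deepest, and it also stood apart in the results below. Its commonest step rests on 71 of 3133 genes, fewer than in any other library.

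All 9 factors were detected in all 6 libraries, over a range of levels of more than 100-fold. *Klf5* was the highest of the 9 in every library, with a mean of 107 FPKM, and *Klf6* the second in every library, with 46.3 FPKM. *Klf9* and *Klf10* followed, with 21.5 and 18.1 FPKM, and *Klf9* was the higher in 5 of 6 libraries. Thereafter came *Klf2*, *Klf4*, *Klf3* and *Klf13*, with means of 5.91, 5.75, 5.74 and 4.57 FPKM. The order among these 4 changed between libraries, and no neighbours among them differed in all 6. *Klf17* was the lowest in every library. The steps from *Klf5* to *Klf6*, *Klf6* to *Klf9*, *Klf10* to *Klf2* and *Klf13* to *Klf17* went the same way in 6 of 6 libraries. The plot of levels by factor shows these 5 tiers.

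**Figure D2:**
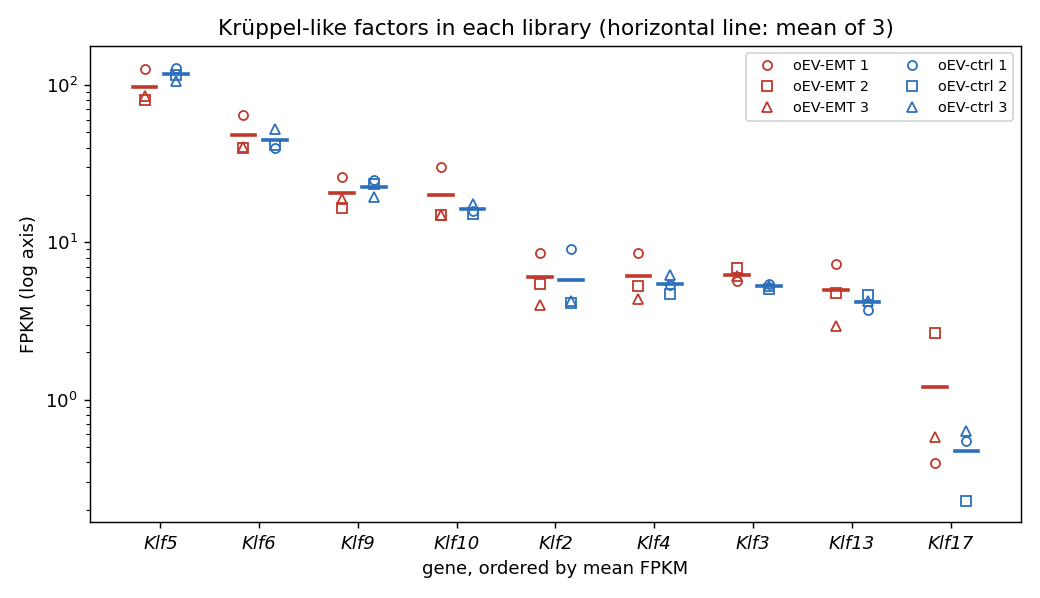
FPKM of the 9 factors in each of the 6 libraries, on a log axis. Genes are ordered by their mean over all libraries, symbols mark the libraries, red stands for oEV-EMT and blue for oEV-ctrl, and horizontal lines give the mean of 3. *Klf5* lies between 80.8 and 129 FPKM and *Klf17* between 0.228 and 2.64 FPKM.

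*Klf5* (ENSMUSG00000005148, GRCm38 chr14:99298691-99315036, plus strand) encodes the member required for both first lineages of the blastocyst. It measured 127, 80.8 and 85.2 FPKM in oEV-EMT 1, 2 and 3, and 129, 116 and 106 FPKM in oEV-ctrl 1, 2 and 3. Libraries oEV-EMT 2 and 3 lay below all controls, whereas oEV-EMT 1 lay level with the highest control, so that the groups overlapped. The means were 97.8 ± 25.7 and 117 ± 11.4 FPKM (SD, n = 3). The log2 difference was -0.28 with a standard error of 0.22 and a 95% interval from -0.78 to 0.21, which did not pass the test (limma, adjusted p = 0.571). Its sign was kept under all 16 alternatives, with values between -0.55 and -0.16. Without oEV-EMT 1 it was -0.49 (limma, adjusted p = 0.248).

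As a share of the summed FPKM of the 9 factors, *Klf5* made up 45.8%, 45.6% and 48.1% in oEV-EMT 1, 2 and 3, and 55.2%, 53.9% and 49.2% in oEV-ctrl 1, 2 and 3. All 3 oEV-EMT shares of *Klf5* lay below all 3 oEV-ctrl shares, oEV-EMT 1 included, and the ratio of *Klf5* to another tested gene likewise did not overlap between the groups for 29.3% of all genes. The mean shares were 46.5 ± 1.40% and 52.8 ± 3.19% (SD, n = 3). The summed FPKM of the 9 factors overlapped between the groups, at 278, 177 and 177 in oEV-EMT and 234, 215 and 216 in oEV-ctrl. The share of *Klf10* did not overlap either, in the other direction, at 10.8%, 8.40% and 8.44% in oEV-EMT and 6.81%, 7.08% and 8.13% in oEV-ctrl. The ratio of *Klf10* to another tested gene did not overlap for 10.3% of all genes. A ratio to 1 gene is not the same measure as a share of the sum of the 9. Such shares do not depend on the scaling of the libraries. Shares of the same libraries move against each other, since they sum to the whole.

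*Klf2* (ENSMUSG00000055148, chr8:72319033-72321656, plus strand) is also known for keeping endothelium and T cells quiescent. Its values were 8.59, 5.47 and 4.0 FPKM in oEV-EMT 1, 2 and 3 and 9.08, 4.09 and 4.22 FPKM in oEV-ctrl 1, 2 and 3. The first library of each group was high and the other 4 were low, so that the spread within either group exceeded the gap between the means of 6.02 ± 2.35 and 5.79 ± 2.84 FPKM (SD, n = 3). The log2 difference was 0.07, with a 95% interval from -0.67 to 0.81 (limma, adjusted p = 0.936).

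*Klf4* (ENSMUSG00000003032, chr4:55527143-55532466, minus strand), a reprogramming factor, measured 8.59, 5.30 and 4.35 FPKM in oEV-EMT and 5.34, 4.66 and 6.23 FPKM in oEV-ctrl. Only oEV-EMT 1 lay above the controls. The means were 6.08 ± 2.22 and 5.41 ± 0.789 FPKM (SD, n = 3), and the log2 difference was 0.11, with a 95% interval from -0.48 to 0.69 (limma, adjusted p = 0.870). *Klf2* and *Klf4*, alike in their fingers, thus had means within 0.2 FPKM of each other over all libraries, yet *Klf2* was the higher in 3 libraries and *Klf4* in 3.

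*Klf3* (ENSMUSG00000029178, chr5:64803388-64832901, plus strand), the CtBP-dependent repressor, had the smallest spread over the 6 libraries. It measured 5.70, 6.84 and 6.11 FPKM in oEV-EMT and 5.47, 5.06 and 5.27 FPKM in oEV-ctrl. Its lowest oEV-EMT value exceeded its highest control, and *Klf3* was the only one of the 8 tested factors whose groups did not overlap, against 22.4% of all tested genes (18.1% with oEV-EMT above and 4.34% with it below). The means were 6.22 ± 0.579 and 5.27 ± 0.208 FPKM (SD, n = 3). The log2 difference of 0.20, with a 95% interval from -0.26 to 0.66, was close to the median of all genes and did not pass the test (limma, adjusted p = 0.671), and an exact two-sided permutation test gave p = 0.1, the smallest that 3 libraries against 3 allow. After median-of-ratios scaling and after upper quartile scaling the groups overlapped, and under the latter the log2 difference was -0.03.

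*Klf6* (ENSMUSG00000000078, chr13:5861482-5870394, plus strand), a broadly expressed growth regulator, measured 64.0, 39.9 and 40.1 FPKM in oEV-EMT and 39.6, 41.7 and 52.5 FPKM in oEV-ctrl. One library of each group was raised, oEV-EMT 1 and oEV-ctrl 3, and the other 4 lay within 2.1 FPKM of each other. The means were 48.0 ± 13.9 and 44.6 ± 6.94 FPKM (SD, n = 3), and the log2 difference was 0.08, with a 95% interval from -0.46 to 0.62 (limma, adjusted p = 0.896).

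*Klf9* (ENSMUSG00000033863, chr19:23141226-23168134, plus strand), a target of steroid and thyroid hormone receptors, measured 25.9, 16.6 and 18.8 FPKM in oEV-EMT and 24.8, 23.5 and 19.3 FPKM in oEV-ctrl. As with *Klf5*, oEV-EMT 2 and 3 lay below all controls and oEV-EMT 1 did not. The log2 difference was -0.15, with a 95% interval from -0.67 to 0.36 (limma, adjusted p = 0.783). *Klf9* and *Klf5* were the only tested members with a log2 difference below 0, and both stayed below 0 under all 16 alternatives.

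*Klf10* (ENSMUSG00000037465, chr15:38291463-38300706, minus strand), an early gene of TGF-β signalling, measured 30.1, 14.9 and 14.9 FPKM in oEV-EMT and 15.9, 15.2 and 17.6 FPKM in oEV-ctrl. The value of oEV-EMT 1 was 2.02 times the mean of oEV-EMT 2 and 3, both of which lay just below the controls. The means of 20.0 ± 8.78 and 16.2 ± 1.23 FPKM (SD, n = 3) thus rest on a single library. On the log2 scale the groups differed by 0.21 (limma, adjusted p = 0.751), and without oEV-EMT 1 it was -0.11.

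*Klf13* (ENSMUSG00000052040, chr7:63886351-63938915, minus strand), known as a regulator of chemokine expression in T cells, measured 7.23, 4.74 and 2.93 FPKM in oEV-EMT and 3.73, 4.59 and 4.22 FPKM in oEV-ctrl. The oEV-EMT libraries lay on both sides of the narrow range of the controls. On the log2 scale the groups differed by 0.14 (limma, adjusted p = 0.835), and without oEV-EMT 1 it was -0.12.

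*Klf17* (ENSMUSG00000048626, chr4:117757836-117765648, minus strand) measured 0.394, 2.64 and 0.578 FPKM in oEV-EMT and 0.545, 0.228 and 0.633 FPKM in oEV-ctrl. Library oEV-EMT 2 alone exceeded 1 FPKM, at 4.18 times the highest of the other 5, and the other 2 oEV-EMT libraries lay within the range of the controls. The means were 1.21 ± 1.25 and 0.468 ± 0.213 FPKM (SD, n = 3), and an exact two-sided permutation test gave p = 0.5. The ratio of the means was 2.57, and 1.04 without oEV-EMT 2. When no filter on low values was set, the log2 difference was 0.46 with a standard error of 0.38 (limma, adjusted p = 0.714).

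*Klf17* was not alone in oEV-EMT 2. Of 10155 genes with at least 2 FPKM in this library, 103 (1.01%) lay at least 4.18 times above the highest of the other 5 libraries. The same count was 22 for oEV-EMT 1 and between 4 and 5 for each of the other 4 libraries. Among the 103 were transcripts known from the 2-cell embryo, which were picked after their values were seen. *Tcstv3* stood at 38.6 FPKM in oEV-EMT 2 and at no more than 0.0708 FPKM elsewhere, *Usp17lb* at 13.9 FPKM and at no more than 0.167 FPKM, and *Zfp352* at 7.79 FPKM and at no more than 0.0164 FPKM. The values of *Zscan4c* and *Zscan4d*, other 2-cell transcripts, were 0 in oEV-EMT 2. Whether embryos of an earlier stage were in this pool was not tested. The plot of *Klf17* beside 6 such transcripts shows the same library standing out in each, which follows from how the 103 were picked.

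**Figure D3:**
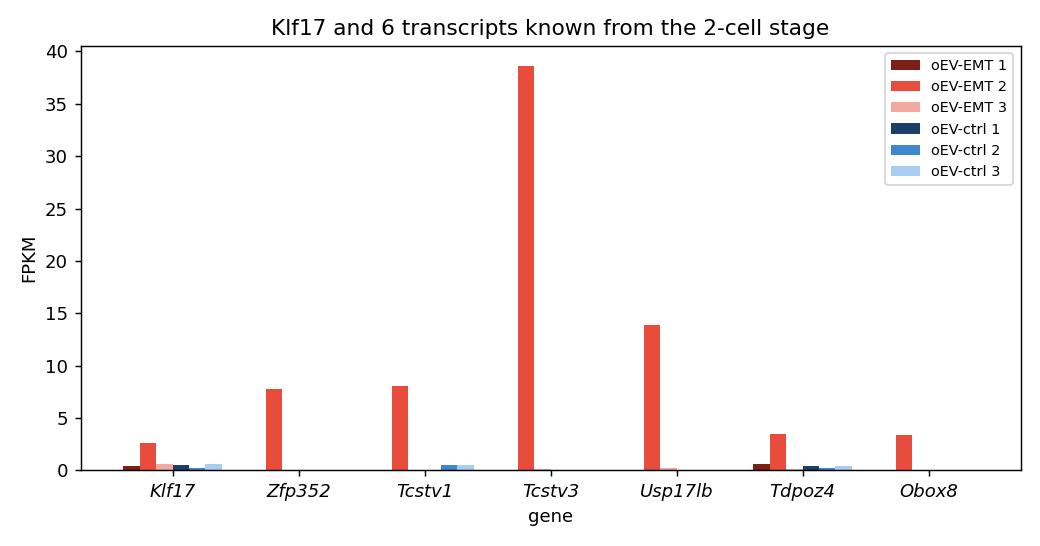
FPKM of *Klf17* and of 6 transcripts known from the 2-cell stage in the 6 libraries, 1 bar per library. The 6 transcripts were picked after their values were seen, from genes chosen for being highest in oEV-EMT 2. In each of the 7 genes the bar of oEV-EMT 2 is the highest, from 2.64 FPKM in *Klf17* to 38.6 FPKM in *Tcstv3*.

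Taking the 8 tested factors together, 0 passed both thresholds of an adjusted p of at most 0.05 and an absolute log2 difference of at least 1 (limma), as did 0% of all tested genes. At an unadjusted p of at most 0.05 the count was likewise 0 of 8, against 15.4% of all tested genes (12.8% higher and 2.55% lower in oEV-EMT). The adjusted p-values lay between 0.571 and 0.936, and the 95% intervals together ran from -0.78 to 0.83. No interval reached the threshold of 1 in either direction. The log2 difference was above 0 in 6 of 8 factors, against 70.1% of all tested genes. Relative to the median of all genes, 2 factors (*Klf3* and *Klf10*) lay above and 6 below, with a median of -0.08 for the 8. With no filter on low values, where the median of all genes was 0.02, 6 lay above and 2 below. The plot of differences shows the intervals.

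**Figure D4:**
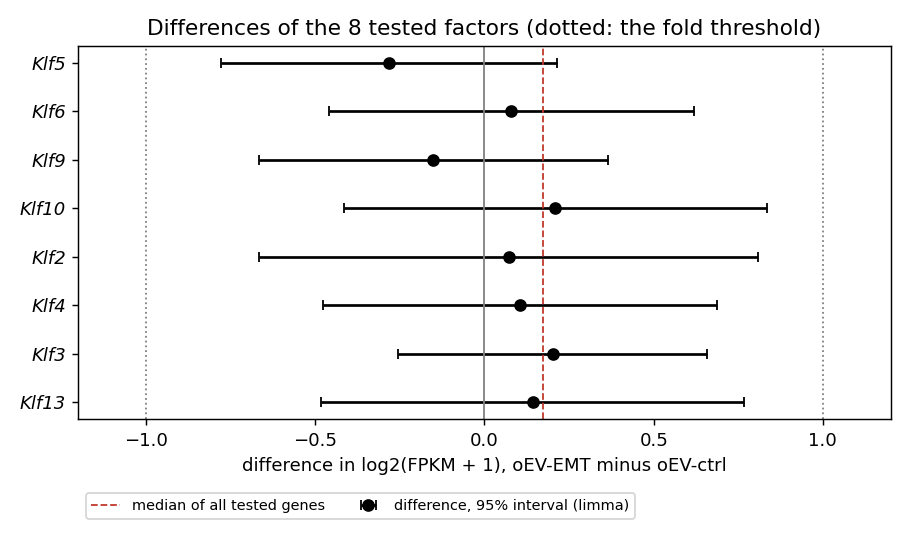
Difference in log2(FPKM + 1) between oEV-EMT and oEV-ctrl for the 8 tested factors, ordered by level. Points give the difference and bars its 95% interval from limma, the dashed line marks the median of all tested genes at 0.17, and the dotted lines mark -1 and 1. Every interval includes 0 and none reaches the dotted lines.

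Much of the spread of the factors lay in single libraries. Library oEV-EMT 1 held the highest value in 5 of 8 tested factors (*Klf4*, *Klf6*, *Klf9*, *Klf10* and *Klf13*), and in 37.4% of all tested genes. In 7 of 8 factors the ratio of oEV-EMT 1 to the mean of oEV-EMT 2 and 3 exceeded 1.11, the median of that ratio over all tested genes. It ranged from 0.880 in *Klf3* to 2.02 in *Klf10*, with a median of 1.69. Within oEV-EMT the coefficients of variation of *Klf10* and *Klf13* were 44.0% and 43.5%, against 7.56% and 10.3% within oEV-ctrl. Without oEV-EMT 1 the groups did not overlap in 4 of 8 factors, with *Klf3* above and *Klf5*, *Klf9* and *Klf10* below, where 39.7% of all tested genes did not overlap. The part of the depth of oEV-EMT 1 in these values was not tested.

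**Figure D5:**
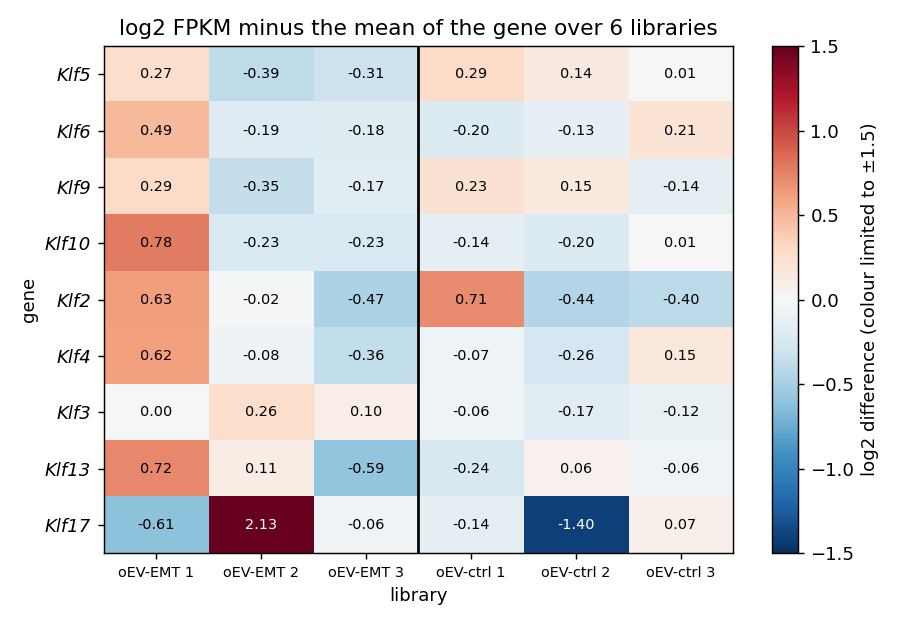
log2 FPKM of each factor in each library after subtraction of the mean over the 6 libraries of that gene. Rows are genes ordered by level, columns are libraries, red is above and blue below the mean of the gene, and colours are limited to 1.5 in either direction. The column of oEV-EMT 1 is above the mean in 7 of 9 rows, and the cell of *Klf17* in oEV-EMT 2 is the largest.

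Ratios between 2 factors within a library are free of the scaling between libraries, apart from the pseudocount. With the pseudocount, 1 of the 28 pairs of tested factors did not overlap between the groups. The share was 13.6% among the ratios of a tested factor to every other tested gene. By factor this share ran from 3.24% for *Klf2* to 29.3% for *Klf5*. The pair was *Klf5* and *Klf10*, 1 of the 7 pairs with *Klf5*. The FPKM of *Klf5* were 4.23, 5.43 and 5.70 times those of *Klf10* in oEV-EMT 1, 2 and 3, and 8.11, 7.61 and 6.05 times in oEV-ctrl 1, 2 and 3. The highest oEV-EMT ratio lay below the lowest oEV-ctrl ratio, and the difference of the log2 ratios was -0.49. *Klf5* stood at 4.92, 4.88 and 4.53 times *Klf9* in oEV-EMT and at 5.19, 4.93 and 5.52 times in oEV-ctrl. Without the pseudocount these groups narrowly did not overlap, at 4.92 against 4.93, and with it they overlapped. *Klf5* kept its proportion to *Klf9* more closely than to *Klf10*, with standard deviations of the log2 ratio of 0.07 and 0.08 within the groups, against 0.21 and 0.22.

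Of 17 other KLF and SP genes, 6 passed the filter and none had an unadjusted p of at most 0.05. *Klf11*, the closest relative of *Klf10*, measured 11.3, 5.04 and 5.33 FPKM in oEV-EMT and 6.36, 4.95 and 5.35 FPKM in oEV-ctrl. Like *Klf10*, it was highest in oEV-EMT 1 and close to the controls elsewhere. Of the 6 genes that passed the filter, 4 were highest in oEV-EMT 1, against 37.4% of all tested genes. *Klf16* had a log2 difference of 0.28 (limma, adjusted p = 0.684), *Klf7* of 0.11 (adjusted p = 0.823) and *Klf8* of -0.13 (adjusted p = 0.795). *Sp3*, a GC box binding factor that competes with *Sp1*, stood at 10.9 ± 2.10 FPKM in oEV-EMT and 13.8 ± 1.84 FPKM in oEV-ctrl (SD, n = 3), with a log2 difference of -0.32 (limma, adjusted p = 0.524). *Sp1* stood at 4.52 ± 2.05 and 4.97 ± 0.300 FPKM (SD, n = 3), with a log2 difference of -0.17 (adjusted p = 0.789). *Sp5* and *Sp7* were listed at 0 in all libraries.

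Signals that lie upstream of the factors in stem cells were read against all tested genes, of which 15.4% had an unadjusted p of at most 0.05 and 22.4% were free of overlap. Of 8 tested genes of LIF to STAT3 signalling, none had an unadjusted p of at most 0.05 and none was free of overlap. *Stat3*, the transcription factor of this pathway, had the highest log2 difference of the list at 0.32 (limma, adjusted p = 0.587), and the kinase *Jak1* the lowest at -0.24 (adjusted p = 0.661). Of 6 tested genes of MEK5 to MEF2 signalling, which precedes *Klf2* and *Klf4*, none had an unadjusted p of at most 0.05. The MEF2 factors *Mef2d* and *Mef2a* marked its ends at 0.49 (adjusted p = 0.605) and -0.31 (adjusted p = 0.467), and *Mef2a* was the only one whose groups did not overlap. Of 5 tested TGF-β signalling genes, 1 was higher in oEV-EMT at an unadjusted p of at most 0.05, namely the signal transducer *Smad2*, with 11.2 ± 2.08 against 5.56 ± 2.31 FPKM (SD, n = 3) and a log2 difference of 0.95 (limma, adjusted p = 0.207). The groups of *Smad2* did not overlap, with oEV-EMT above. Those of *Smad4* did not overlap either, with oEV-EMT below (limma, adjusted p = 0.616). The receptor *Tgfbr1* had the lowest log2 difference at -0.31 (adjusted p = 0.486), and the ligands *Tgfb1*, *Tgfb2* and *Tgfb3* stayed below the filter.

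Among the 15 naive pluripotency genes, which work with *Klf2*, *Klf4* and *Klf5* in stem cells, 4 were higher and 1 was lower in oEV-EMT at an unadjusted p of at most 0.05, against 12.8% higher and 2.55% lower among all tested genes, and 0 passed both thresholds (limma). The 4 were *Nanog*, *Pou5f1*, *Fgf4* and *Nr0b1*, and the 1 was *Dppa5a*. *Nanog*, a core pluripotency factor, measured 53.2, 46.2 and 56.1 FPKM in oEV-EMT and 13.0, 25.8 and 37.5 FPKM in oEV-ctrl. The groups did not overlap, and the log2 difference of 1.11 was the highest of the list (adjusted p = 0.187). *Sall4*, the partner with the lowest log2 difference at -1.06 (adjusted p = 0.799), measured 86.1, 48.1 and 0.804 FPKM in oEV-EMT and 31.8, 47.8 and 42.3 FPKM in oEV-ctrl. Its difference rests on the low value in oEV-EMT 3. Relative to the median of all genes the list had a median of -0.19, next to -0.08 for the 8 tested Krüppel-like factors.

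Of the 12 corepressors and coactivators, 2 were higher and 1 was lower at an unadjusted p of at most 0.05 (12.8% and 2.55% of all tested genes), namely *Ctbp2*, the deacetylase *Hdac1* and the acetyltransferase *Ep300*. *Ctbp2*, a corepressor bound by *Klf3*, had the highest log2 difference at 1.66, with 29.0 ± 3.45 against 12.1 ± 12.8 FPKM (SD, n = 3, limma, adjusted p = 0.322), and the groups overlapped. *Ep300* had the lowest at -0.67 (adjusted p = 0.267). *Sin3a*, the corepressor of *Klf9*, *Klf10* and *Klf13*, measured 4.64 ± 2.69 and 5.67 ± 0.508 FPKM (SD, n = 3, adjusted p = 0.643). Of 7 tested ubiquitin ligases that act on KLF proteins, none had an unadjusted p of at most 0.05, and the F-box proteins *Btrc* and *Fbxw7* marked the ends at 0.38 (adjusted p = 0.475) and -0.45 (adjusted p = 0.443).

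Markers of the 3 blastocyst lineages all passed the filter, and at an unadjusted p of at most 0.05 the share of all tested genes was 12.8% higher and 2.55% lower in oEV-EMT. Of 12 trophectoderm markers 1 was higher at an unadjusted p of at most 0.05, the ETS factor *Elf5* at a log2 difference of 0.67 (limma, adjusted p = 0.270), and the T-box factor *Eomes* was the lowest at -0.39 (adjusted p = 0.486). Of 10 epiblast markers, several of which also stand in the naive list, 5 were higher (*Utf1*, *Nanog*, *Fgf4*, *Pou5f1* and *Dppa4*) and none lower. The highest was *Utf1*, a chromatin factor of pluripotent cells, at 1.83 (adjusted p = 0.101), and the lowest was *Zfp42* at -0.71 (adjusted p = 0.647). *Zfp42* measured 84.3, 90.3 and 17.7 FPKM in oEV-EMT and 74.7, 63.7 and 130 FPKM in oEV-ctrl. Its difference rests largely on the low value in oEV-EMT 3. Of 10 primitive endoderm markers 2 were higher, *Gata4* and *Sox17*, with *Sox17* at 0.95 (adjusted p = 0.302) and *Amot* at -0.68 (adjusted p = 0.699) at the ends. *Amot* too was low in oEV-EMT 3, with 9.25, 3.45 and 0.195 FPKM in oEV-EMT and 5.41, 4.83 and 4.99 FPKM in oEV-ctrl. The median log2 difference relative to all genes was -0.20 for trophectoderm, 0.40 for epiblast and -0.13 for primitive endoderm. The part of lineage proportions in the values of the factors was not tested.

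Other cell types could add their own Krüppel-like factors, as endothelium and blood cells do for *Klf2*. Of 16 markers of cumulus cells, oviduct epithelium, blood and stroma, 2 passed the filter. They were *Pecam1* with a log2 difference of 0.53 (limma, adjusted p = 0.296) and the globin *Hba-a1* with 0.35 (adjusted p = 0.587). At an unadjusted p of at most 0.05, 1 of these 2 was higher in oEV-EMT, *Pecam1*, against 12.8% of all tested genes. Whether the RNA of these 2 markers came from such cells or from the embryos themselves was not tested. The summed FPKM of the list ran from 3.06 to 4.83 in oEV-EMT and from 1.70 to 2.95 in oEV-ctrl. Of the 16, 6 were at 0 in all libraries, among them the leukocyte marker *Ptprc*, the ciliated cell marker *Foxj1* and the cumulus marker *Ptx3*. Of 12 oocyte and 2-cell transcripts 2 passed the filter. *Zp3*, a protein of the zona pellucida, had a log2 difference of 0.79 (adjusted p = 0.174) and *Zp2* of 0.50 (adjusted p = 0.407). Of these 2, *Zp3* was higher in oEV-EMT at an unadjusted p of at most 0.05, against 12.8% of all tested genes. Its groups did not overlap, as in 18.1% of all tested genes with oEV-EMT above. The list of oocyte and 2-cell transcripts summed to between 4.50 and 11.7 FPKM in oEV-EMT and between 2.5 and 3.39 FPKM in oEV-ctrl. The highest sum was that of oEV-EMT 2, the library in which *Klf17* stood out. Of that sum, 7.79 FPKM came from *Zfp352* alone, already named above as high in this library. *Zp2* was instead highest in oEV-EMT 1, at 5.23 FPKM against 2.70 FPKM in oEV-EMT 2.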

How the data were processed

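Polyadenylated RNA of 6 pools of blastocysts, 3 per group, was sequenced. Per the submitters' processing notes, the authors used StringTie and the mm10 build, and the aligner is not given in the sources used here. The deposited values are named TPM in the methods, but they summed to between 1293175 and 1551567 per library and were therefore analysed as FPKM. Read totals are unknown, so that no counting interval is given. Genes were named from GENCODE M21 (GRCm38).

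All 11924 genes that reached 1 FPKM in 3 or more libraries entered a single limma model (version 3.58.1, R 4.3.3) of log2(FPKM + 1), with the trend and robust options of eBayes. Benjamini-Hochberg adjustment ran over all of them. The procedure was tested on simulated data. The thresholds were an adjusted p of at most 0.05 and an absolute log2 difference of at least 1, as the study set them. With a different test, the study reported genes of both directions that passed them, whereas no tested gene did so in the limma model used here. The cause of this gap was not tested. No scaling between libraries was added. Groups did not overlap when all 3 values of one group lay above all 3 of the other. Exact permutation tests were two-sided.

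The factors and the gene lists were chosen with earlier results of these data known. By the naming rule, all 9 factors and each other KLF or SP gene that passed the filter were named, and from each other list the genes with the highest and the lowest log2 difference. The genes of each list with an unadjusted p of at most 0.05 were named outside it, after their values were seen. So were *Sin3a*, *Smad4*, the 2-cell transcripts, *Sp5*, *Sp7*, *Tgfb1*, *Tgfb2*, *Tgfb3*, *Ptprc*, *Foxj1* and *Ptx3*, and the list of immediate early genes. The replicate numbers were not taken as pairs, and whether they pair the samples is not stated in the sources used here. Relative depth was derived from the commonest step between low values of genes with 1 transcript. Identical stretches of 50 bases were searched over GENCODE M21 transcripts on both strands. Alternatives covered the scaling between libraries, the pseudocount, the filter, the variance model, library weights, the replicate number as a block, and the omission of single libraries. Plots used matplotlib 3.10.9 (Python 3.11.15).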

Additional observations from a re-analysis of the deposited data

How the results depend on the processing

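Over 16 alternatives, 107 of 127 log2 differences of the tested factors kept their sign, none passed the adjusted threshold, and 20 changed sign from a main value above 0. Upper quartile scaling gave -0.157 for *Klf2*, -0.0257 for *Klf3*, -0.12 for *Klf4*, -0.181 for *Klf6*, -0.0422 for *Klf10* and -0.0773 for *Klf13*. Median-of-ratios scaling gave -0.101 for *Klf2*, -0.0639 for *Klf4*, -0.115 for *Klf6* and -0.0235 for *Klf13*, and library weights -0.0278 for *Klf4*, -0.13 for *Klf6* and -0.0331 for *Klf10*. These 2 scalings moved the median of all genes from 0.17 to -0.0471 and 0.00913. When each library was left out, the values ran from -0.18 to 0.394 for *Klf2*, from -0.135 to 0.285 for *Klf4*, from -0.143 to 0.2 for *Klf6*, from -0.113 to 0.372 for *Klf10* and from -0.123 to 0.411 for *Klf13*. The lowest of each was that without oEV-EMT 1, and *Klf2* was also below 0 without oEV-ctrl 2 and without oEV-ctrl 3. The cause was not tested. The number of factors at an unadjusted p of at most 0.05 was 1 rather than 0 under upper quartile scaling and under library weights. In both cases it was *Klf5* (limma, adjusted p = 0.203 under the weights). Of all genes tested there, 1508 of 11966 and 2789 of 11924 reached that p. When each library was left out, the number ran from 0 to 1. The 1 was *Klf5* without oEV-EMT 1, where 2182 of 11924 genes reached it. The number whose groups did not overlap was 0 under both scalings, against 20% of all tested genes under each. It ran from 1 to 4 when each library was left out, with *Klf13* added without oEV-EMT 3. Over all tested genes that share ran from 28.4% to 39.7%, and it was 36.8% without oEV-EMT 3. Same-numbered libraries had correlations of their deviations of 0.12, -0.04 and 0.04 over genes, so the numbers were not taken as pairs. With the replicate block, 0 factors passed both thresholds, against 21 of all genes (0 without the block, and 104 under library weights), and *Klf5* remained at -0.28 (limma, adjusted p = 0.629). *Klf17* stayed under 1 FPKM in 5 of 6 libraries, and read totals are unknown.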

Other observations

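Several Krüppel-like factors, *Klf2*, *Klf4*, *Klf6* and *Klf10* among them, belong to the genes that cells switch on within an hour of a stimulus. A list of 22 such immediate early genes, drawn up after the values were seen, was looked at by library. Whether a response to a stimulus had a part in the values of oEV-EMT 1 was not tested. *Klf2* itself was highest in oEV-ctrl 1, at 9.08 FPKM. Of its members 11 passed the filter, and 8 of these 11 had their highest value in oEV-EMT 1, against 37.4% of all tested genes. The activator subunit *Junb*, below the filter, measured 2.16 FPKM in oEV-EMT 1 and between 0.467 and 0.564 FPKM in the other 5 libraries. The mRNA decay factor *Zfp36* measured 4.25 FPKM in oEV-EMT 1 and between 0.770 and 1.57 FPKM in the others. The list was not uniform, since *Btg2*, an antiproliferative gene, was lowest in oEV-EMT 1 at 14.0 FPKM and highest in oEV-EMT 3 at 23.5 FPKM. *Jund* and *Gadd45b* were highest in oEV-ctrl 1, at 2.87 and 11.2 FPKM. Between the groups, 3 of the 11 were higher in oEV-EMT at an unadjusted p of at most 0.05, and none lower, against 12.8% higher and 2.55% lower among all tested genes. They were *Myc*, *Srf* and *Ier3*. Of these, *Myc*, a growth regulator, measured 22.7, 12.7 and 17.1 FPKM in oEV-EMT and 10.4, 9.29 and 10.4 FPKM in oEV-ctrl (limma, adjusted p = 0.224), and *Srf*, the factor that binds CArG boxes, 4.65, 2.75 and 3.68 FPKM against 2.49, 1.73 and 2.32 FPKM (adjusted p = 0.304). In both genes the groups did not overlap, as in 18.1% of all tested genes with oEV-EMT above.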
